A study of Mus musculus with 45 samples.

Results

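The methylation of histone H3 at lysine 9 (H3K9) was followed through the messenger RNAs of its enzymes in mouse embryos and embryonic stem (ES) cells treated to degrade the transcription factor GABPA. The genes are 10 in number, chosen by symbol, of 55385 genes in each table. They comprise 5 methyltransferases or writers (*Setdb1*, *Suv39h1*, *Suv39h2*, *Ehmt1* and *Ehmt2*), 4 demethylases or erasers (*Kdm3a*, *Kdm3b*, *Kdm4c* and *Kdm1a*) and *Trim28*, a corepressor that recruits SETDB1 and is itself neither a writer nor an eraser. Each symbol matched exactly 1 identifier, and all 10 genes passed the low-count filter at every stage. The study asks what GABPA does before implantation, and compares embryos or cells with and without the protein at 4 stages.

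All embryos were *Gabpa* dTAG/dTAG, with the FKBP degron and an HA tag fused to GABPA from both alleles, so the controls carried the fusion as well. dTAG13, a small molecule that brings the tagged protein to a ubiquitin ligase, was compared with its vehicle DMSO. Late two-cell embryos were treated with 1 μM dTAG13 from 6 to 30 h post fertilization (hpf), with 3 libraries of each group. Morulae were treated with 1 μM from 42 hpf, the E4.5 inner cell mass (ICM, isolated by immunosurgery) with 1 μM from 84 to 100 hpf, and naive ES cells in 2i medium (2iES, clonal lines with the same tag) with 0.5 μM for 24 h, each with 2 libraries of each group. The study describes its RNA-seq libraries as biological replicates.

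In bulk RNA, a lower level in each cell and a smaller share of the cells that hold the transcript cannot be told apart. Libraries held 9457933 to 27660132 expected counts, with the fewest in morulae. Replicates of the E4.5 ICM differed from each other by 1.63 (DMSO) and 1.69 (dTAG13) times the variance of counting alone, against 2.84 to 16.1 times at the other stages, and the fitted standard errors were smallest in the ICM. Of the markers of the labelled cells, the summed TPM (a level scaled for transcript length and library depth) of 9 epiblast genes in the ICM ran from 947 to 979 with DMSO and from 454 to 460 with dTAG13. The sum of 7 trophectoderm genes there ran from 66.7 to 72.7 and from 776 to 777, and that of 6 primitive endoderm genes from 234 to 242 and from 309.6 to 309.8. Of the trophectoderm genes in the ICM, 4 of 7 reached 1 TPM with DMSO and 6 of 7 with dTAG13, and none was at 0 in a group.

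The messenger RNA of *Gabpa* was looked at first, although dTAG13 acts on the protein and the transcript is no check of its loss. It had 106, 116 and 87.3 TPM with DMSO and 162, 141 and 156 with dTAG13 in late two-cell embryos, and 6.67 and 8.13 against 13.6 and 12.8 in morulae. It had 10.1 and 11.2 against 27.5 and 27.3 in the ICM, and 7.37 and 5.76 against 11.3 and 11.1 in 2iES cells. All dTAG13 libraries thus lay above the DMSO libraries of their stage, and by edgeR *Gabpa* rose at 3 stages, by 0.52 (adjusted p = 0.00886), 0.95 (adjusted p = 3.74e-29) and 0.93 (adjusted p = 0.000939) on the log2 scale, with 0.74 (adjusted p = 0.131) in morulae.

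Methyl groups on H3K9 mark silent chromatin. SETDB1 and the SUV39H enzymes place the trimethyl mark, SETDB1 mostly at transposable elements to which zinc finger proteins bring TRIM28, and the SUV39H enzymes at repeats around centromeres. EHMT1 (GLP) and EHMT2 (G9a) work as a dimer that places mono- and dimethyl marks in euchromatin. KDM3A and KDM3B take off mono- and dimethyl marks, KDM4C takes off the trimethyl mark from H3K9 and also acts on H3K36, and KDM1A (LSD1) acts mainly on H3K4 and has been linked to H3K9 in some complexes. In early embryos and ES cells the writers keep retrotransposons silent, and KDM3A and KDM4C have been tied to the self-renewal of ES cells.

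GABPA belongs to the ETS family, whose members bind a GGAA core. Promoter windows were searched for the letters CCGGAAG on both strands, in windows of 300 bases that lie mostly before a transcript start, as RefSeq gives it on GRCm38.p6. The letters stood in 8.86% of 32851 windows and in at least 1 window of 9.93% of 27025 genes. Windows were found for 9 of the 10 genes (14 windows, none for *Kdm3b*), and 2 genes held the letters, *Setdb1* and *Kdm3a*. The *Setdb1* window held them 68 bases before the start on the forward strand and 47 bases before it on the reverse strand, and 1 of 3 *Kdm3a* windows held them 26 bases before its start. These 2 stretches are shown with that of *Trim28*, which fell at 2 stages and whose window has no match, each for the 120 bases just before the start on the gene's strand with the match in capitals. The positions are chr3:95357203-95357322 (minus strand) for *Setdb1*, chr6:71632687-71632806 (minus strand) for *Kdm3a* and chr7:13024032-13024151 (plus strand) for *Trim28*. No exon of the annotation lies in the *Kdm3a* and *Trim28* stretches, and the *Setdb1* stretch lies in an exon of the opposite-strand gene *Gm37500*.
Setdb1: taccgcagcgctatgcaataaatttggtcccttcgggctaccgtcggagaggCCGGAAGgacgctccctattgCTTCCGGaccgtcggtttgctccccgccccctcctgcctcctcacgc
Kdm3a: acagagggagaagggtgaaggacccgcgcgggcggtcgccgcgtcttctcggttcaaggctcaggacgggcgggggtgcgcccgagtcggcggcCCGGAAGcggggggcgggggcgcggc
Trim28: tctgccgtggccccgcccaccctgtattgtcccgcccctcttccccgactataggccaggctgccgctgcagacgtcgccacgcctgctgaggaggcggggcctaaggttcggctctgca
A match is a description of the letters and not of binding. No binding data were analysed here.

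The levels of the 10 genes in control embryos and cells were described first. In TPM, which corrects for transcript length, *Trim28* was the most abundant of the 10 at every stage, at 97.0 ± 17.8 (SD, n = 3) in late two-cell embryos, 376 ± 69.8 (n = 2) in morulae, 534 ± 15.5 (n = 2) in the ICM and 272 ± 0.00707 (n = 2) in 2iES cells. In late two-cell embryos *Ehmt1* (51.3), *Kdm3a* (42.1), *Kdm4c* (29.6) and *Suv39h1* (28.4) followed, and *Setdb1* (8.05) and *Ehmt2* (6.80) were lowest. The libraries of neighbours in this order overlapped for *Kdm4c* and *Suv39h1*, for *Kdm1a* and *Suv39h2*, and for *Setdb1* and *Ehmt2*. In morulae *Kdm1a* (22.2) and *Ehmt2* (19.2) followed *Trim28* with overlapping libraries, and *Kdm4c* was lowest at 1.96. In the ICM *Kdm3a* (28.1) and *Ehmt2* (26.9) followed, again overlapping, and *Kdm4c* was again lowest at 5.19. In 2iES cells *Ehmt1* and *Kdm3a* followed at 34.2 each, and *Kdm3b* was lowest at 4.99.

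**Figure D1:**
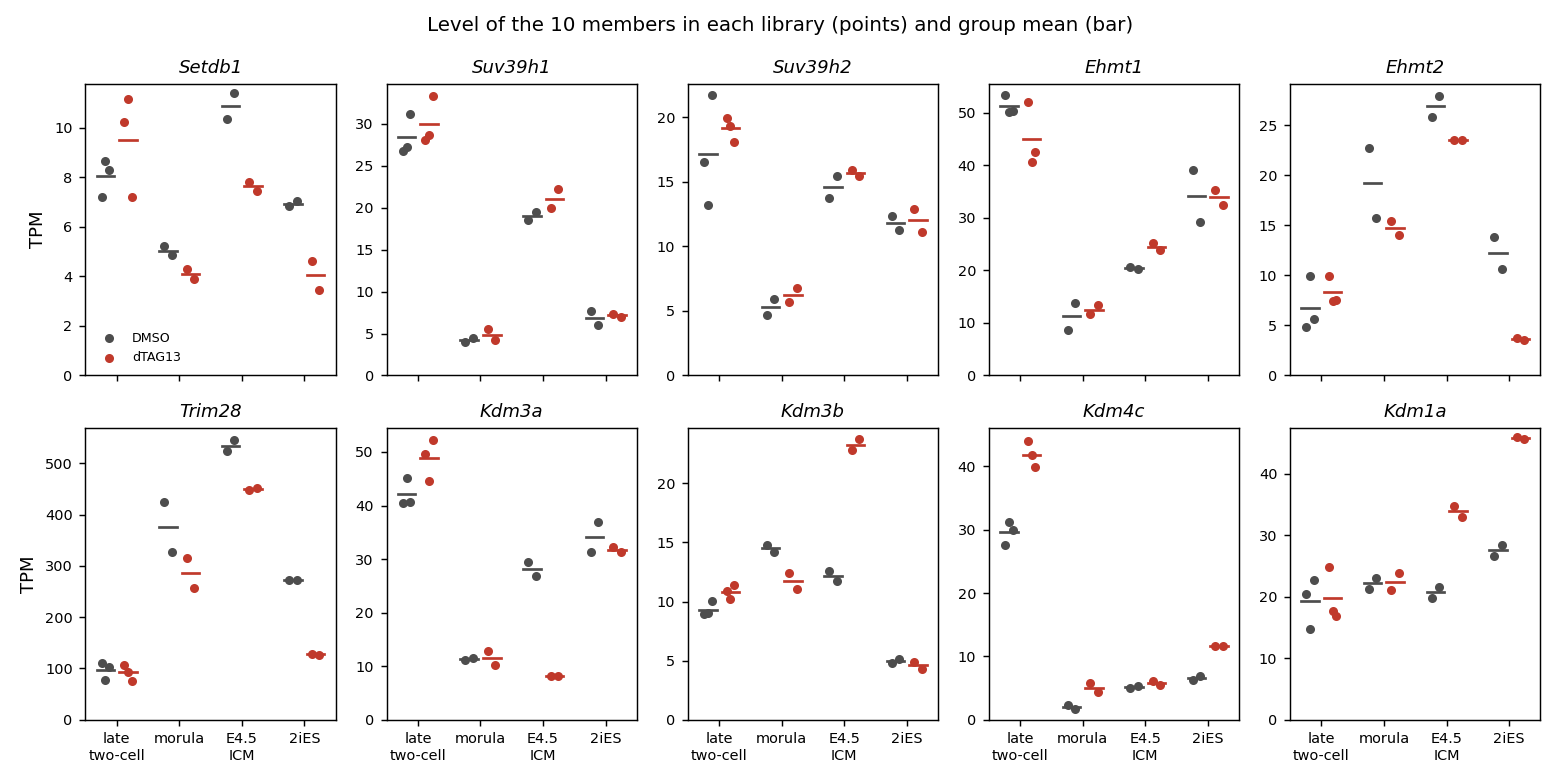
Level in TPM (vertical axes, starting at 0) of each of the 10 genes at the 4 stages (horizontal axes), with 1 point per library and a bar at the group mean, DMSO in grey and dTAG13 in red. *Kdm3a* in the E4.5 ICM (28.1 against 8.17 TPM) and *Ehmt2* (12.3 against 3.62) and *Trim28* (272 against 127) in 2iES cells stand clearly apart between the groups, while in late two-cell embryos most groups overlap.

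From the late two-cell stage to the morula, 5 of the 10 genes fell and 4 rose in controls, where 37.9% of 19830 genes tested fell and 31.2% rose. The median of all genes was -0.28 on the log2 scale, so changes are relative to a downward shift. *Kdm4c* had the largest change of the 10 and fell by 3.26 ± 0.193 (SE) on the log2 scale, from 27.5, 31.3 and 29.98 TPM to 2.28 and 1.64 (adjusted p = 8.34e-09). The erasers parted here, since *Kdm3a* fell by 1.13 while *Kdm3b* (1.16) and *Kdm1a* (0.53, adjusted p = 0.0133) rose. The 2 members of the G9a and GLP dimer parted as well, *Ehmt1* falling by 1.65 ± 0.192 (adjusted p = 5.12e-06) and *Ehmt2* rising by 1.77 ± 0.287 (adjusted p = 0.000106). *Suv39h1* fell by 2.43, *Suv39h2* fell by 1.33, *Trim28* rose by 1.83, and *Setdb1* had a log2 difference of -0.32 (adjusted p = 0.126). Stage and any batch of collection cannot be told apart in these contrasts.

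From the morula to the ICM, 7 of the 10 genes rose and 2 fell, against 24.6% and 21.0% of all genes tested. The writers *Suv39h1* (log2 difference 1.65 ± 0.185, adjusted p = 1.25e-05), *Suv39h2* (1.12), *Setdb1* (0.85) and *Ehmt1* (0.67) rose with *Kdm4c* (1.48), *Kdm3a* (0.68) and *Trim28* (0.64). *Kdm1a* fell by 0.51 (adjusted p = 0.0382) and *Kdm3b* by 0.49 (adjusted p = 0.0388), and *Ehmt2* had a difference of 0.43 (adjusted p = 0.280). Of these calls, *Kdm1a* and *Kdm3b* did not pass with library totals as the only scaling, *Kdm3b* did not pass without the low-count filter, and *Ehmt1*, *Trim28* and *Kdm3a* did not pass with upper-quartile scaling. Neither fall passed when any 1 of the morula or ICM control libraries was left out, and without ICM control library 1 or 2 only 4 or 3 of the 7 rises passed. From the ICM to 2iES cells, 4 genes rose (21.9% of all genes did) and 2 fell (20.7%). *Kdm1a* (1.08), *Kdm3a* (0.97), *Kdm4c* (0.90) and *Ehmt1* (0.77) rose, while *Suv39h1* fell by 1.22 ± 0.177 (adjusted p = 0.000131) and *Trim28* by 0.48 (adjusted p = 0.0360). With library totals only, all genes together were lower in 2iES cells (median -0.33), *Ehmt1* and *Kdm4c* did not pass, and *Setdb1*, *Ehmt2* and *Kdm3b* also passed as lower. The call of *Trim28* was lost with upper-quartile scaling, without the filter and when any 1 of the ICM or 2iES control libraries was left out (adjusted p = 0.115 to 0.179). That of *Ehmt1* was lost without ICM control library 1 (adjusted p = 0.0666) or 2iES control library 1 (adjusted p = 0.0546).

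At the late two-cell stage, edgeR called none of the 10 genes after dTAG13 from 6 to 30 hpf, where 7.63% of 17421 genes tested fell and 1.42% rose. None of the 10 had an unadjusted p under 0.05 except *Kdm4c*, and DESeq2 called none either. *Kdm4c*, the trimethyl eraser, had the smallest adjusted p of the 10. It had 27.5, 31.3 and 29.98 TPM with DMSO and 44.0, 41.7 and 39.9 with dTAG13, with no overlap between the groups. On counts its log2 fold change was 0.23 ± 0.102 (adjusted p = 0.229), and with the length of its transcripts as an offset it was 0.42 (adjusted p = 0.0490). The mean transcript length of *Kdm4c* was 2437 bases with DMSO and 2130 with dTAG13, and the ratio of its mean TPM was 0.50 on the log2 scale. *Kdm3b*, which shares its substrate with *Kdm3a*, also had TPM without overlap (8.92, 8.99 and 10.0 against 10.9, 10.2 and 11.4) at a count log2 fold change of 0.05 (adjusted p = 0.893). Groups did not overlap in this direction for 14.5% of all genes tested, and none of the 10 was lower without overlap, against 12.8% of all genes. With the cut-offs of a 2-fold change and a mean FPKM of 1 added to the adjusted p, 3.66% of all genes were lower and 0.465% higher, and none of the 10. The other 8 genes had log2 fold changes between -0.17 (*Ehmt1*) and 0.17 (*Ehmt2*), and their groups overlapped in TPM.

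In morulae, *Kdm4c* rose and no other gene of the 10 passed, where 0.234% of 13667 genes tested rose and 0.351% fell. *Kdm4c* had 2.28 and 1.64 TPM with DMSO and 5.83 and 4.34 with dTAG13, from 74 counts in each DMSO library and 238 and 197 in the dTAG13 libraries. Both dTAG13 libraries lay above both DMSO libraries, with a log2 fold change of 1.40 ± 0.280 (2.64-fold, adjusted p = 0.0288). The call was lost without DMSO library 1 (adjusted p = 0.0659), without dTAG13 library 1 (adjusted p = 0.112) and with the transcript length offset (adjusted p = 0.0626). The change of *Kdm4c* differed between stages when that difference was tested, by -1.27 ± 0.195 for late two-cell embryos minus morulae (adjusted p = 0.000318). That test came from a fit of all 18 libraries with a shared spread. Its standard error is smaller than that of the morula change fitted alone (0.280). With the 2-fold and FPKM cut-offs *Kdm4c* still counted as higher (0.205% of all genes did, and 0.344% as lower). In TPM it was the only 1 of the 10 that was higher without overlap (20.1% of all genes), and *Setdb1*, *Ehmt2*, *Trim28* and *Kdm3b* were lower without overlap (23.5%) at calls that did not pass. The other 9 genes lay between -0.34 (*Ehmt2*) and 0.30 (*Suv39h2*), with adjusted p-values of 0.530 to 0.994.

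In the E4.5 ICM, 4 of the 10 genes fell (38.5% of 15840 genes tested did) and 3 rose (38.4% did). *Kdm3a*, which takes mono- and dimethyl marks off H3K9, changed the most. It had 29.4 and 26.9 TPM with DMSO and 8.14 and 8.20 with dTAG13, from 1965 and 1877 counts and from 625 and 663. It fell by 1.53 ± 0.0533 on the log2 scale (2.89-fold, adjusted p = 3.43e-43), and of the 10 genes only *Kdm3a* also met the cut-offs of a 2-fold change and a mean FPKM of 1, which 13.2% of all genes met as lower and 12.0% as higher. In TPM, 4 of the 10 were lower without overlap (40.0% of all genes) and 5 higher (44.8%). *Kdm3b*, its paralogue, went the other way, with 12.6 and 11.7 TPM against 22.8 and 23.7. It rose by 0.61 ± 0.0552 on counts (adjusted p = 4.66e-17) and by 0.94 in TPM, with a mean transcript length of 3479 bases with DMSO and 2881 with dTAG13. Mean transcript lengths did not overlap between the groups for 9 of the 10 genes in the ICM. In 2iES cells this held for 7 of the 10, and for 1 each in late two-cell embryos and morulae. TPM is scaled by this length, and the shift was not counted over all genes. Since 24.6% of the exonic bases of *Kdm3b* lie under the opposite-strand gene *Gm26538* and the libraries keep no strand, reads of the 2 genes cannot be told apart there.

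*Kdm1a*, the LSD1 demethylase, rose in the ICM by 0.72 ± 0.0467 on the log2 scale (adjusted p = 4.16e-25), with 19.8 and 21.6 TPM against 34.8 and 32.9. *Kdm4c* had 5.07 and 5.30 TPM against 6.06 and 5.46, and a log2 fold change of -0.03 (adjusted p = 0.756). Among the writers, *Setdb1* fell by 0.65 ± 0.0622 (adjusted p = 4.28e-16), from 10.4 and 11.4 TPM to 7.82 and 7.45. *Ehmt2* (25.9 and 27.96 against 23.6 and 23.6 TPM) fell by 0.29 and *Ehmt1* (20.6 and 20.3 against 25.1 and 23.8) rose by 0.35, both by less than the change of *Setdb1*. *Trim28* had 524 and 545 TPM against 447 and 451, and fell by 0.20 ± 0.0252 (adjusted p = 2.27e-11). *Suv39h1* and *Suv39h2* did not pass, at 0.05 (adjusted p = 0.446) and 0.11 (adjusted p = 0.0986). In a fit of all 18 libraries with a shared spread, *Ehmt1* (adjusted p = 0.0944), *Ehmt2* (adjusted p = 0.487) and *Trim28* (adjusted p = 0.392) no longer passed, while *Kdm3a*, *Setdb1*, *Kdm3b* and *Kdm1a* did. The trophectoderm and epiblast markers given above moved in the same libraries, and their part in these changes was not tested.

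In 2iES cells, 3 of the 10 genes fell (28.4% of 15511 genes tested did) and 2 rose (26.8% did). The writer *Ehmt2* changed the most. It had 13.9 and 10.7 TPM with DMSO and 3.73 and 3.5 with dTAG13, from 718 and 572 counts and from 175 and 143, and fell by 1.77 ± 0.187 on the log2 scale (3.42-fold, adjusted p = 0.000191). *Trim28* had 272 and 272 TPM against 128 and 127 and fell by 1.17 ± 0.0994 (2.26-fold, adjusted p = 7.19e-05). These 2 genes also met the 2-fold and FPKM cut-offs, which 15.6% of all genes met as lower and 12.3% as higher. In TPM, 3 of the 10 were lower without overlap (40.1% of all genes) and 2 higher (37.8%). *Setdb1*, the writer that TRIM28 recruits, had 6.84 and 7.05 TPM against 4.63 and 3.45, and fell by 0.81 ± 0.159 (adjusted p = 0.00377). Without dTAG13 library 2 the fall of *Setdb1* did not pass (adjusted p = 0.0785).

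The erasers *Kdm4c* and *Kdm1a* rose in 2iES cells. *Kdm4c* had 6.30 and 6.85 TPM with DMSO and 11.6 and 11.7 with dTAG13, a log2 fold change of 0.82 ± 0.138 (adjusted p = 0.00172). *Kdm1a* had 26.7 and 28.4 TPM against 45.9 and 45.7, a log2 fold change of 0.76 ± 0.110 (adjusted p = 0.000885). In both genes the groups stood apart. *Kdm3a*, which fell in the ICM, had 31.4 and 37.0 TPM against 32.3 and 31.2, with overlapping libraries and a log2 fold change of -0.03 ± 0.123 (adjusted p = 0.867). *Kdm3b* (-0.31, adjusted p = 0.120), *Suv39h1* (0.22, adjusted p = 0.290), *Suv39h2* (0.06, adjusted p = 0.762) and *Ehmt1* (0.12, adjusted p = 0.507) did not pass either. Without DMSO library 1, *Suv39h1*, *Ehmt1*, *Kdm3a* and *Kdm3b* passed, with adjusted p-values of 0.0344, 0.0359, 0.0410 and 0.00955, and *Kdm3b* also passed without DMSO library 2 (adjusted p = 0.0455).

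**Figure D2:**
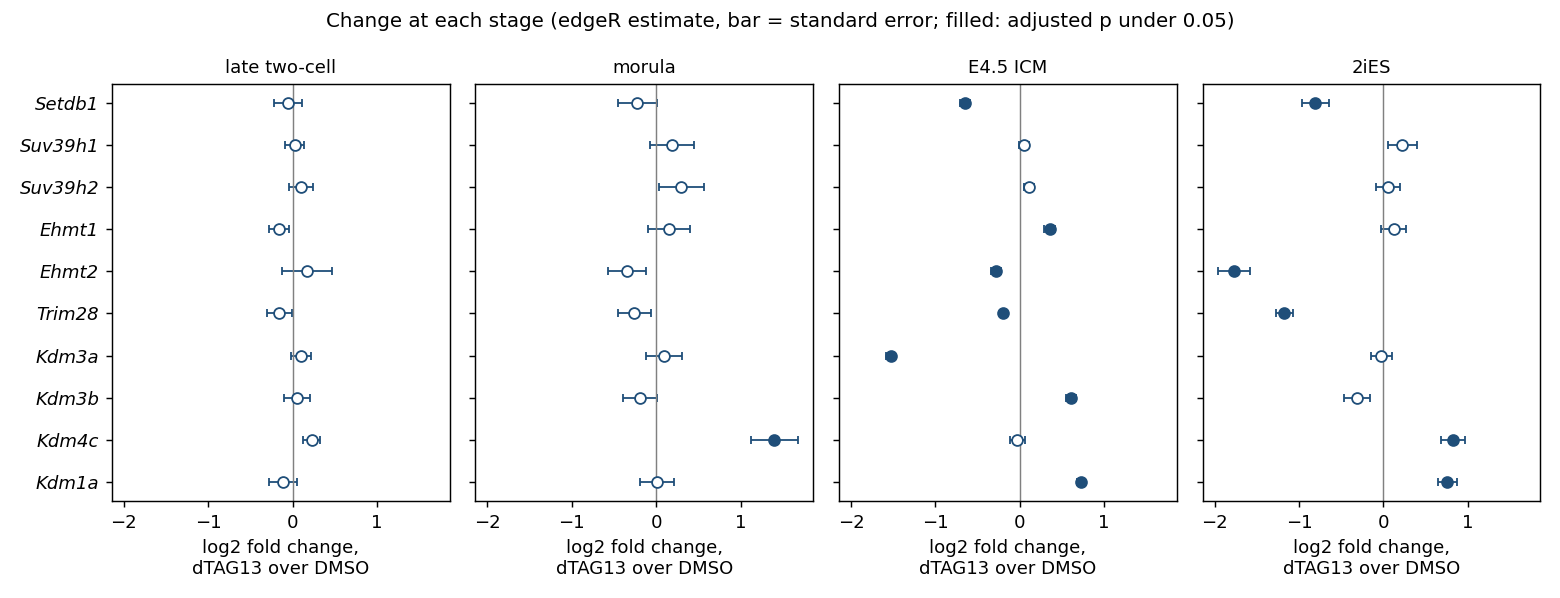
Log2 fold change of dTAG13 over DMSO (horizontal axis) of the 10 genes at each stage, from edgeR on expected counts, with the standard error as a bar and filled points for an adjusted p under 0.05. No point is filled at the late two-cell stage, 1 in morulae (*Kdm4c*, 1.40), 7 in the E4.5 ICM and 5 in 2iES cells, and the error bars are shortest in the ICM.

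*Setdb1*, *Ehmt2* and *Trim28* fell and *Kdm1a* rose both in the ICM and in 2iES cells, which have separate controls. The difference of the change between stages was tested for all 10 genes, in 1 fit of all 18 libraries with a shared spread. For ICM minus 2iES cells, 2 genes were lower and 3 higher, against 9.97% and 7.50% of 21915 genes tested. The change of *Ehmt2* was higher in the ICM than in 2iES cells by 1.44 ± 0.387 on the log2 scale (adjusted p = 0.0145) and that of *Trim28* by 0.93 ± 0.216 (adjusted p = 0.00570), meaning a smaller fall in the ICM. The change of *Kdm3a* was lower in the ICM by 1.55 ± 0.222 (adjusted p = 0.000108). For *Setdb1* the difference was 0.11 ± 0.260 (adjusted p = 0.913) and for *Kdm1a* -0.08 ± 0.239 (adjusted p = 0.958). For late two-cell embryos minus morulae, *Kdm4c* alone was lower (6.01% of all genes, with 0.703% higher). For morulae minus the ICM, 1 gene was lower (5.47%) and 2 higher (10.8%), and for late two-cell embryos minus the ICM, 2 were lower (10.5%) and 1 higher (9.91%). *Kdm3b* was lower in both, and passed under only 17 and 8 of 24 alternatives. *Kdm3a* was among the higher genes in both, by 1.69 ± 0.226 and 1.61 ± 0.203. In 2iES cells the sum of the 7 trophectoderm markers ran from 107 to 138 TPM with DMSO and from 125 to 131 with dTAG13, with overlapping libraries, and the sum of the 9 epiblast markers from 674 to 685 and from 359 to 387.

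The summed level shows how far these changes add up. The 5 writers together held 112 ± 4.74 TPM (SD, n = 3) with DMSO and 112 ± 7.09 with dTAG13 in late two-cell embryos, and 91.8 ± 3.89 (n = 2) and 92.4 ± 0.0566 in the ICM, with overlapping libraries at both. They held 45.02 ± 0.403 and 42.4 ± 0.311 in morulae, and 72.1 ± 10.996 and 60.7 ± 4.54 in 2iES cells, lower with dTAG13 without overlap at both. In 2iES cells the libraries nearly met, running from 64.3 to 79.9 TPM with DMSO and from 57.5 to 63.9 with dTAG13. Single genes were lower without overlap for 23.5% of all genes tested in morulae and 40.1% in 2iES cells. The 4 erasers together held 100.4 ± 2.96 TPM and 121 ± 7.51 in late two-cell embryos (n = 3), 49.9 ± 0.636 and 50.9 ± 1.94 in morulae, 66.2 ± 0.933 and 71.0 ± 1.03 in the ICM, and 73.3 ± 5.86 and 93.8 ± 1.25 in 2iES cells. The eraser sum was higher with dTAG13 without overlap in late two-cell embryos, the ICM and 2iES cells. Single genes were higher without overlap for 14.5%, 44.8% and 37.8% of all genes tested at these stages. In late two-cell embryos no eraser was called, and *Kdm4c* had the largest difference in mean TPM (29.6 to 41.9). In 2iES cells *Kdm1a* had the largest (27.5 to 45.75). Sums in TPM carry no test here and give no measure of enzyme activity or of the mark.

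**Figure D3:**
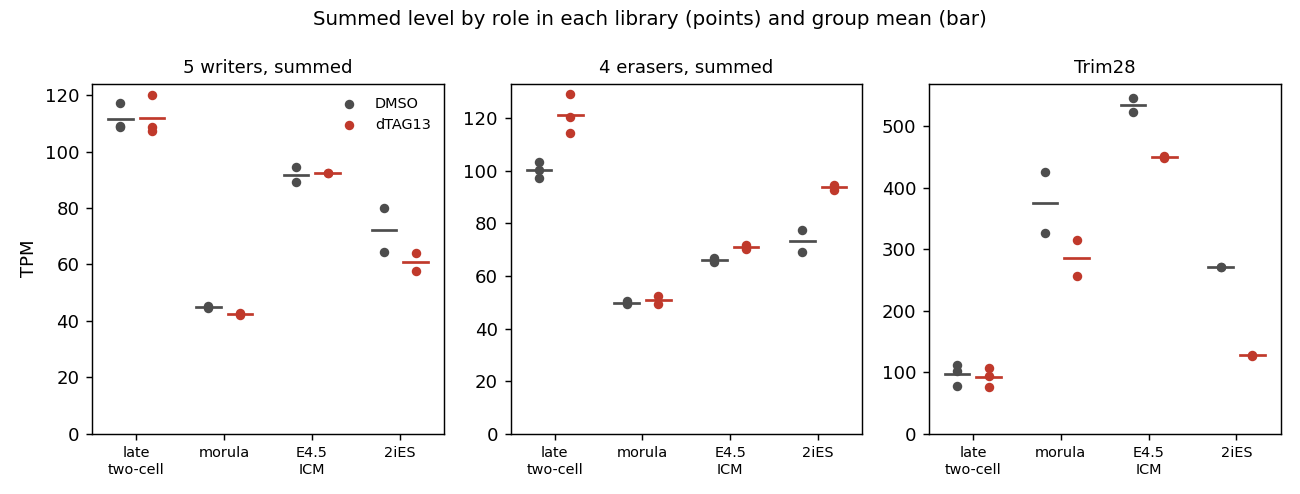
Summed TPM (vertical axes, starting at 0) of the 5 writers, of the 4 erasers and of *Trim28* alone at the 4 stages, with 1 point per library and a bar at the group mean, DMSO in grey and dTAG13 in red. The writers hold about the same sum in both ICM groups (91.8 and 92.4 TPM), the erasers stand higher with dTAG13 in 2iES cells (73.3 against 93.8), and *Trim28* stands lower (272 against 127).

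A further 36 genes of H3K9 methylation (of 37 symbols listed) were counted. Of those tested, 1 of 36 passed at the late two-cell stage (*Pphln1*) and 1 of 31 in morulae (*Uhrf1*), both as lower, where 7.63% and 0.351% of all genes fell. In the ICM 11 of 34 fell and 15 rose, where 38.5% of all genes fell and 38.4% rose, with a median log2 fold change of 0.17 against 0.01 over all genes tested. In 2iES cells 9 of 33 fell and 13 rose, where 28.4% of all genes fell and 26.8% rose, with a median of 0.29 against 0.03. Counts by role follow, read against the same shares of all genes, and roles were not tested against each other. The other writers (*Setdb2*, *Prdm2*, *Mecom* and *Prdm16*) rose in 4 of 4 cases in the ICM and 3 of 4 in 2iES cells. Of the other erasers, 6 of 7 were tested, of which 1 fell and 3 rose in the ICM and 4 rose in 2iES cells. Of 6 readers, which bind the mark, 4 fell and 1 rose in the ICM and 3 fell in 2iES cells. Of 10 partners of LSD1, 3 fell and 3 rose among 9 tested in the ICM, and 3 fell and 2 rose among 8 tested in 2iES cells. Of 6 partners of SETDB1, 2 fell and 3 rose in the ICM and 3 fell and 2 rose in 2iES cells. Of 3 partners of G9a and GLP, 1 fell and 1 rose in the ICM and 2 rose in 2iES cells. *Prdm2* rose on counts in the ICM while its mean TPM went from 4.64 to 3.24, and its mean transcript length from 3017 to 6529 bases.

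*Uhrf1*, a reader that couples the mark to DNA methylation, fell at 3 stages. It had a mean of 12.0 TPM against 4.88 in morulae (log2 fold change -1.30 ± 0.224, adjusted p = 0.0104), 40.5 against 18.02 in the ICM (-1.23 ± 0.0427, adjusted p = 2.01e-43) and 21.8 against 10.4 in 2iES cells (-1.02 ± 0.122, adjusted p = 0.000366). In late two-cell embryos it had 3.40 against 4.79 TPM (0.43, adjusted p = 0.192). *Chaf1b*, a subunit of the chromatin assembly factor CAF-1, fell by 1.68 ± 0.0523 in the ICM (57.2 to 18.8 TPM) and fell by 2.30 ± 0.182 in 2iES cells (47.0 to 8.97 TPM). *Pphln1*, a subunit of the HUSH complex that acts with SETDB1, fell in late two-cell embryos by 0.56 ± 0.0813 (317 to 224 TPM, adjusted p = 0.000881).

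The other genes with the largest changes were low or moderate in level. In the ICM *Zfp462*, a zinc finger partner of G9a and GLP, fell by 3.01 ± 0.292 from 0.725 to 0.06 TPM, and *Mecom* rose by 1.82 ± 0.299 from 0.330 to 1.25 TPM. In 2iES cells *Kdm7a*, an eraser, rose by 2.35 ± 0.248 from 0.240 to 1.18 TPM, and *Hmg20b*, an LSD1 partner, fell by 1.65 ± 0.244 from 11.4 to 4.91 TPM.

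**Figure D4:**
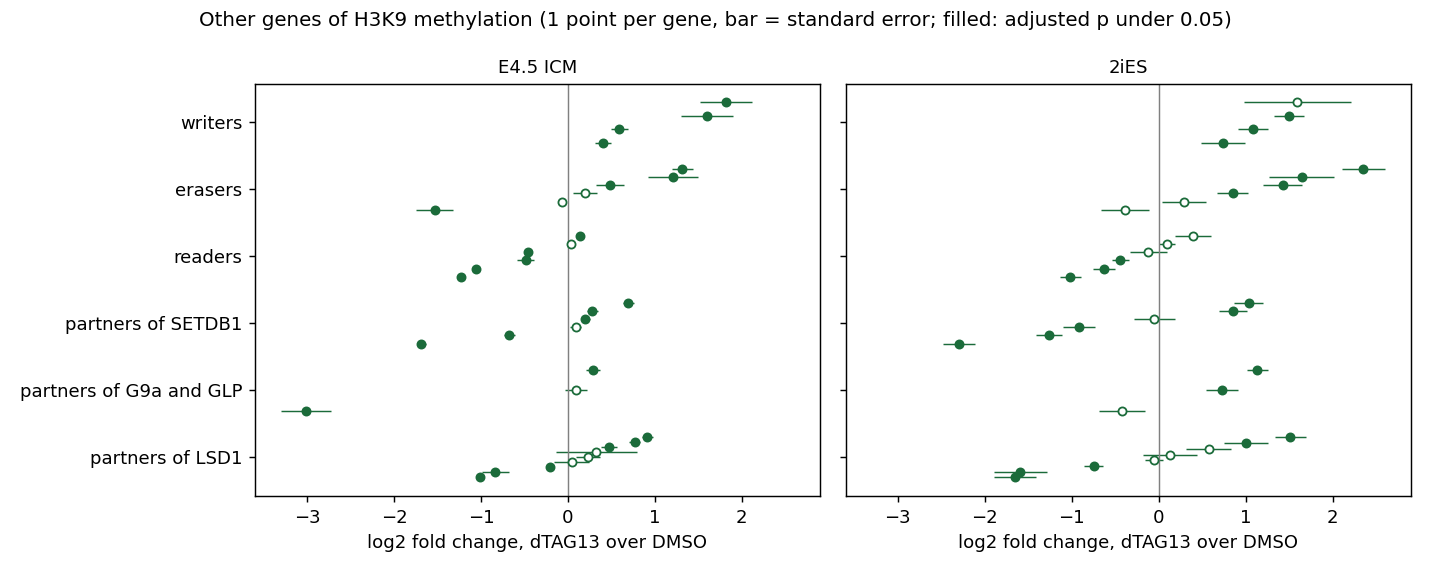
Log2 fold change of dTAG13 over DMSO (horizontal axes) for the other genes of H3K9 methylation tested in the E4.5 ICM (34 genes) and in 2iES cells (33 genes), grouped by role (vertical axis), with the standard error as a bar and filled points for an adjusted p under 0.05. The other writers lie to the right of 0 at both, most filled readers lie to the left, and the partners of SETDB1 and LSD1 lie on both sides.

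The genes whose pattern was most like each of the 10 were taken by Pearson correlation of log2(TPM + 1) over the 8 group means, among 9377 genes. The closest were *Yipf2* for *Trim28* (r = 0.997), *Carmil1* for *Kdm3b* (0.995), *Htatsf1* for *Suv39h1* (0.993), *Fam192a* for *Kdm4c* and *Tpgs2* for *Ehmt1* (both 0.989). They were *Nans* for *Suv39h2* (0.987), *Zfp365* for *Kdm1a* (0.986), *Sap30* for *Kdm3a* and *Yeats4* for *Setdb1* (both 0.980) and *Cdipt* for *Ehmt2* (0.974). With 8 points and 9377 genes such values describe these libraries, and the points share stages and libraries.

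On GRCm38 (GENCODE M21) the writers lie on chromosome 3 from 95323525 to 95357202 (*Setdb1*), X from 8061171 to 8074760 (*Suv39h1*), 2 from 3455815 to 3475031 (*Suv39h2*), 2 from 24789928 to 24919614 (*Ehmt1*) and 17 from 34898469 to 34914052 (*Ehmt2*). The others lie on chromosome 7 from 12999114 to 13031035 (*Trim28*), 6 from 71588972 to 71632990 (*Kdm3a*), 18 from 34777047 to 34838660 (*Kdm3b*), 4 from 74242497 to 74405860 (*Kdm4c*) and 4 from 136550540 to 136602723 (*Kdm1a*). Values are for all exons of a gene together. Opposite-strand genes overlap 14.6% of the exonic bases of *Suv39h1* (*Gm14820*), 9.98% of *Suv39h2* (*Dclre1c* and *Gm13184*) and 4.73% of *Setdb1* (*Gm37500* and *Cers2*), so their reads are uncertain in those stretches. The 31-base words that also occur in other genes made up 25.7% of those of *Kdm3b*, 14.4% of *Suv39h1* and 12.9% of *Setdb1*. For *Setdb1*, *Gm4349* was among these other genes.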

How the data were processed

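RNA was measured by SMART-Seq v4 and Nextera XT libraries, which keep no strand. Per the labels and the study's methods, Trimmomatic 0.39 removed adapters, STAR placed the reads on GRCm38, and RSEM gave the authors an estimate for each gene. The deposited tables give expected counts, which are estimates and need not be whole, together with TPM and FPKM values by the authors for 55385 identifiers in each of 18 libraries. Their posterior standard deviations were used only as a check on shared reads, and their mean transcript lengths as given. The study's methods name the Ensembl release of the genome sequence, while that of the gene annotation is not given in the sources used here. Names were matched to GENCODE M21 (54487 identifiers with the same version, 657 by the identifier without it, 241 unnamed).

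Expected counts were rounded. For each stage separately, genes with at least 10 counts in as many libraries as the smaller group were tested with edgeR 4.0.16 (TMM scaling, robust quasi-likelihood test, R 4.3.3), with Benjamini-Hochberg adjustment over all genes tested and a threshold of 0.05. Log2 fold changes are dTAG13 over DMSO, and errors beside them are standard errors. Control levels came from 1 fit over the DMSO libraries alone, and differences of effect between stages from 1 fit over all 18 libraries. TPM and FPKM were described without a test. Library totals were 9457933 to 12382705 counts in morulae and 18266057 to 27660132 elsewhere, so genes of few counts were least precise in morulae. The fits were tested on simulated counts with known changes.

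The genes described, and the lists of other H3K9 genes and of markers, were chosen with earlier results of these data known. All 10 genes were named. Other H3K9 genes were named where they passed at 3 or more stages without overlap of TPM, or were among the 3 largest called changes of a stage, and *Prdm2* was added after its values were seen. Alternatives were RLE, upper-quartile and total scaling, DESeq2 1.42.0, no low-count filter, all libraries in 1 fit, a call rule with a 2-fold change and FPKM of 1, the replicate number as a block, each library left out, and FPKM in place of TPM. A transcript length offset and a crossed pairing of 2iES libraries were chosen after seeing the data. Binding, accessibility and histone libraries were not analysed here. Figures used Python 3.11.15 and matplotlib 3.10.9.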

Additional observations from a re-analysis of the deposited data

Results flagged for a closer look

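The difference in the change with dTAG13 was tested in 4 contrasts between stages for each of the 10 genes, and 12 of these 40 tests passed, in a fit of all 18 libraries with the difference of the 2 log2 fold changes as the term. Several contrasts use the same ICM or morula libraries and are not independent. All stages share 1 spread in this fit, although ICM replicates differed less than those of the other stages. Of all 21915 genes tested, 6.01% were lower and 0.703% higher for late two-cell embryos minus morulae, 5.47% and 10.8% for morulae minus ICM, 9.97% and 7.50% for ICM minus 2iES cells, and 10.5% and 9.91% for late two-cell embryos minus ICM.

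*Kdm3a* differed at all 3 contrasts with the ICM, by 1.61 ± 0.203 for late two-cell embryos minus ICM (adjusted p = 1.86e-05), 1.69 ± 0.226 for morulae minus ICM (adjusted p = 3.91e-05) and -1.55 ± 0.222 for ICM minus 2iES cells (adjusted p = 0.000108). Each passed under 24 of 24 alternatives. Of the 24 for each contrast, 18 left out 1 library, including libraries of stages outside the contrast. *Kdm4c* differed by -1.27 ± 0.195 for late two-cell embryos minus morulae (adjusted p = 0.000318), by 1.5 ± 0.214 for morulae minus ICM (adjusted p = 7.57e-05) and by -0.90 ± 0.198 for ICM minus 2iES cells (adjusted p = 0.00380, passing under 23 of 24 alternatives). The 2 others passed under 24 of 24.

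*Kdm3b* differed by -0.58 ± 0.195 for late two-cell embryos minus ICM (adjusted p = 0.0419), -0.73 ± 0.214 for morulae minus ICM (adjusted p = 0.0248) and 0.87 ± 0.215 for ICM minus 2iES cells (adjusted p = 0.00831). These passed under 8, 17 and 23 of 24 alternatives, and the first reached an adjusted p of 0.3. *Kdm1a* differed by -0.86 ± 0.220 for late two-cell embryos minus ICM (adjusted p = 0.00947, 21 of 24 alternatives). *Ehmt2* differed by 1.44 ± 0.387 for ICM minus 2iES cells (adjusted p = 0.0145, 20 of 24 alternatives) and *Trim28* by 0.93 ± 0.216 (adjusted p = 0.00570, 24 of 24 alternatives).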

How the results depend on the processing

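No called value changed direction under any alternative run. Counts below are of the 10 genes, and the cause of each shift was not tested. For dTAG13 against DMSO, the transcript length offset gave 1 higher gene in late two-cell embryos and 0 in morulae. The rule with a 2-fold change gave 1 lower and 0 higher in the ICM and 0 higher in 2iES cells. The fit of all 18 libraries gave 2 lower in the ICM, and upper-quartile scaling 5 higher there, adding *Suv39h1* (adjusted p = 0.0198) and *Suv39h2* (adjusted p = 0.00192). For control levels, ICM minus morula had 0 lower with library totals, 1 lower without the filter and 4 higher with upper-quartile scaling, and 2iES minus ICM had 5 lower and 2 higher with library totals and 1 lower with upper-quartile scaling. For differences of effect, morula minus ICM had 2 lower with RLE, library totals, upper-quartile scaling and DESeq2, and 0 with the replicate block. ICM minus 2iES had 1 lower without the filter. Late two-cell minus ICM had 1 lower with RLE, library totals, no filter and the replicate block, and 2 higher with DESeq2.

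Leaving out 1 library at a time gave 0 to 1 higher genes in morulae, 4 lower and 3 higher in the ICM throughout, and 2 to 5 lower and 2 to 4 higher in 2iES cells, the most without DMSO library 1, with 0 in late two-cell embryos throughout. Control levels ranged from 5 to 6 lower and 3 to 4 higher for morula minus late two-cell, 0 to 2 and 3 to 7 for ICM minus morula, and 1 to 3 and 3 to 4 for 2iES minus ICM. Differences of effect ranged from 1 to 1 lower and 0 to 1 higher for late two-cell minus morula, 0 to 2 and 2 to 2 for morula minus ICM, 2 to 2 and 1 to 3 for ICM minus 2iES (1 without dTAG13 library 2 of 2iES cells), and 0 to 3 and 1 to 3 for late two-cell minus ICM, where leaving out any ICM library but dTAG13 library 2 gave 0 lower.

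Replicate numbers were not used to pair libraries in the main fits. Correlations of same-numbered libraries were 0.0193 to 0.0546 in late two-cell embryos, 0.00996 in morulae, 0.0102 in the ICM and -0.133 in 2iES cells, and each late two-cell DMSO library correlated best with its own number. With the replicate block no stage's member calls changed, while over all genes the morula calls went from 48 lower and 32 higher to 215 and 203. The crossed pairing in 2iES cells gave 4594 lower and 4506 higher against 4404 and 4161. Over all genes at the late two-cell stage, 1329 fell and 247 rose, against 1003 and 560 with upper-quartile scaling, and in 2iES cells that scaling gave 3674 and 5150.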
